A study of Mus musculus with 4 samples.

Results

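MERVL-int is the internal part of MERVL, the mouse endogenous retrovirus with a leucine tRNA primer binding site, and MT2_Mm is its long terminal repeat (LTR). The counts of both were examined in mouse embryonic stem cells (ESCs) that lack Terc, the RNA template of telomerase, after 3 generations without it. The members were all copies of transposable elements (TEs) that carried exactly the repeat name MERVL-int or MT2_Mm, which gave 2600 and 2667 copies, or 5267 of the 3658072 TE copies in the counts. RNA-seq libraries of G3 Terc-/- ESCs (line F35, Terc knockout) were compared with those of wild-type (WT) ESCs (line N12), 2 libraries of each, both on a C57BL/6 background. Both genotypes were grown on feeder cells in medium with serum and LIF, the cytokine that keeps ESCs undifferentiated, and poly(A) RNA was sequenced. Each genotype was 1 line, so genotype and line cannot be told apart, and p-values cover only the spread between libraries of a line.

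Endogenous retroviruses are remnants of ancient germline infections. A full copy consists of an internal part, which codes for viral proteins, flanked by LTRs, of which the 5′ one acts as the promoter. Many copies have lost their internal part by recombination and remain as solo LTRs. MERVL is known for its burst of transcription in the mouse embryo at the 2-cell stage, when the zygotic genome is activated, and MT2_Mm LTRs also serve there as promoters of nearby genes. In ESC cultures, MERVL and the genes of the 2-cell stage are expressed in a rare and transient population, the 2-cell-like cells, and are held silent in other cells by chromatin repressors.

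TE counts per library lay between 1805047 and 2104586, and gene counts between 18047995 and 22520017. Terc itself was counted 7 and 2 times in WT and 0 times in either G3 Terc-/- library, which allows up to 3 counts. The replicates differed by more than sampling noise, as the chi-square per gene was 2.41 in WT and 3.60 in G3 Terc-/- ESCs. All 10 ESC markers were detected, with summed levels of 6522 and 6587 CPM of the gene counts (counts relative to the library total) in WT and 7789 and 8086 CPM in G3 Terc-/- ESCs. Collagens and other fibroblast genes, which mark feeder cells, summed to 334 and 213.5 CPM in WT and to 389 and 259 CPM in G3 Terc-/- ESCs, with all 12 markers detected. Their level was higher in replicate 1 of each genotype and overlapped between the genotypes.

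MERVL-int was upregulated in G3 Terc-/- ESCs. Its copies summed to 1374 and 1365 counts in WT against 7585 and 6257 in the G3 Terc-/- libraries. Relative to all TE counts of a library, this was 667 and 649 CPM in WT and 3672 and 3466 CPM in G3 Terc-/- ESCs, or 658 ± 13.3 (SD, n = 2) against 3569 ± 145.6 (SD, n = 2). The lowest G3 Terc-/- library was far above the highest WT library. The log2 fold change was 2.39 (standard error 0.04), a 5.24-fold rise, with an adjusted p of 2.69e-11 (quasi-likelihood test of edgeR, Benjamini-Hochberg over 917 families). MERVL-int ranked 3 among these families by log2 fold change.

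MT2_Mm was upregulated as well. Its copies summed to 1099 and 1096 counts in WT against 2931 and 2557 in G3 Terc-/- libraries. The levels were 534 and 521 CPM of the TE counts in WT and 1419 and 1417 CPM in G3 Terc-/- ESCs, with means of 527 ± 9.20 (SD, n = 2) and 1418 ± 1.74 (SD, n = 2). The replicates lay close to each other and the genotypes did not overlap. The log2 fold change of MT2_Mm was 1.38 (standard error 0.04), or 2.60-fold, with an adjusted p of 5.27e-09 from the same edgeR test, and its rank was 5. Across all families, 5.13% were higher at the cutoffs of a 1.5-fold change at a P value of 0.05, and the median log2 fold change was -0.0046. In bulk RNA, a larger share of cells that express MERVL and a higher level in each cell cannot be told apart.

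**Figure D1:**
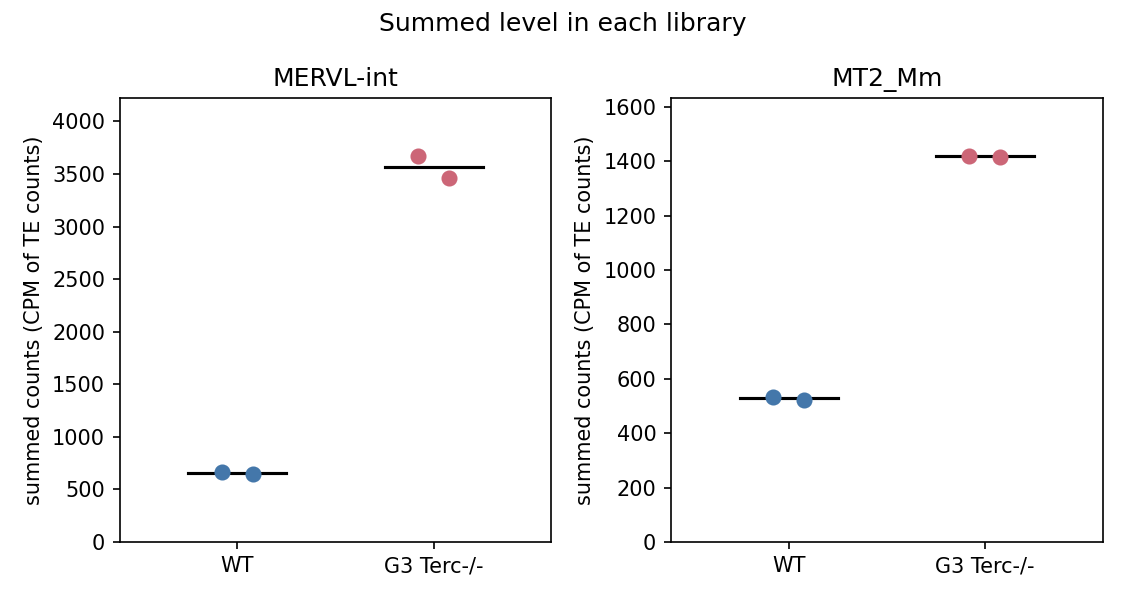
Summed counts of MERVL-int (left) and MT2_Mm (right) in CPM of all TE counts of the library. Each point is 1 library and the horizontal line is the mean of the genotype. Both G3 Terc-/- libraries sit above both WT libraries, at 3672 and 3466 against 667 and 649 CPM for MERVL-int and at 1419 and 1417 against 534 and 521 CPM for MT2_Mm.

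The counts of the internal part rose by a larger factor than those of the LTR. The log2 ratio of MERVL-int to MT2_Mm counts, which needs no scaling of the libraries, was 0.32 in both WT libraries but 1.37 and 1.29 in the G3 Terc-/- libraries. In linear terms there were 1.25 counts of MERVL-int per count of MT2_Mm in each WT library, and 2.59 and 2.45 in the G3 Terc-/- libraries. The difference of 1.01 on the log2 scale was larger than the spread between replicates (exact two-sided permutation test, p = 0.333, the smallest p that 2 against 2 libraries allow). Without the 5 copies with the most counts of each name, chosen as an alternative after the data had been seen, the difference was 0.56.

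The families closest to the members by name were read beside them, namely the internal part MERVL_2A-int and the LTRs MT2A, MT2B, MT2B1, MT2B2 and MT2C_Mm. None of these 6 families passed the 1.5-fold cutoff. MT2B1 came nearest, with 1015 and 1001 CPM of the TE counts in WT, 1357 and 1347 CPM in G3 Terc-/- ESCs and a log2 fold change of 0.37 ± 0.04 (SE, edgeR adjusted p = 8.18e-05). MERVL_2A-int, with 1526 and 1637 CPM in WT and 1926 and 1909 CPM in G3 Terc-/- ESCs, had a log2 fold change of 0.23 ± 0.04 (SE, edgeR adjusted p = 0.00309). The log2 fold changes of the other 4 LTR families lay between -0.11 for MT2B2 and 0.10 for MT2C_Mm, with 0.01 for MT2A and -0.03 for MT2B. The difference between the members and these families was not tested.

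**Figure D2:**
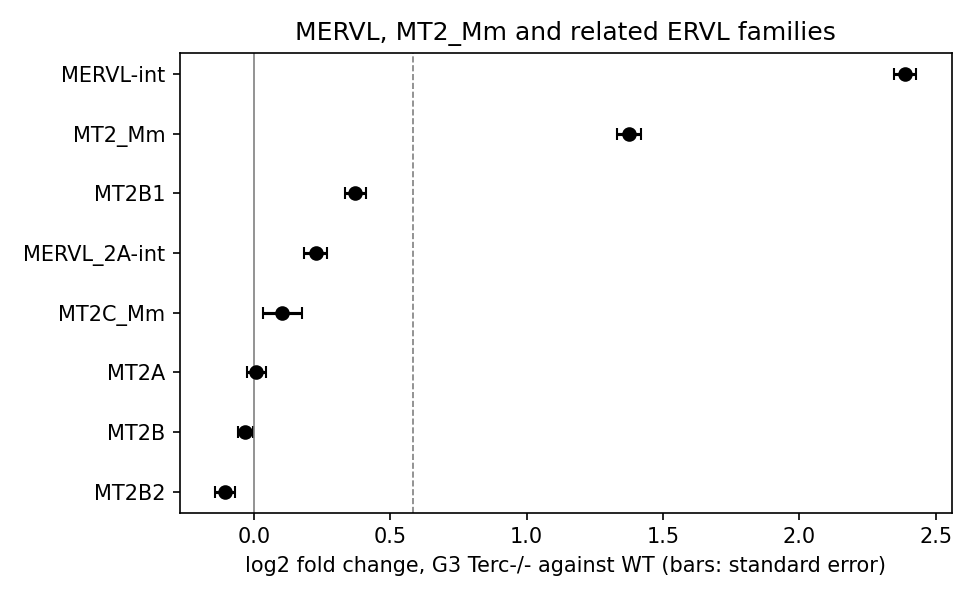
Log2 fold change of the summed counts, G3 Terc-/- against WT, of MERVL-int, MT2_Mm and 6 related families. Points are edgeR estimates, bars are 1 standard error, the solid line marks no change and the dashed line marks the 1.5-fold cutoff (0.585). MERVL-int (2.39) and MT2_Mm (1.38) lie to the right of the cutoff and the other families, at most 0.37, to the left.

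More copies of both names were detected in G3 Terc-/- ESCs. At least 1 count was found on 515 and 490 MERVL-int copies in the WT libraries (19.8% and 18.8% of 2600) and on 1147 and 1113 copies in the G3 Terc-/- libraries (44.1% and 42.8%). For MT2_Mm, 282 and 276 copies were detected in WT (10.6% and 10.3% of 2667) and 890 and 811 copies in G3 Terc-/- libraries (33.4% and 30.4%). Over all TE copies, the share detected was 7.65% and 7.49% in WT against 7.84% and 7.31% in G3 Terc-/- libraries. These shares overlapped between the genotypes, unlike those of MERVL-int and MT2_Mm.

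A name with more counts will show more copies, so the G3 Terc-/- counts were also thinned, by calculation, to the mean WT total of the name. At 1369.5 counts, 609 and 614 MERVL-int copies would have been detected in the G3 Terc-/- libraries, against the 515 and 490 found in WT. At 1097.5 counts, 515 and 499 MT2_Mm copies would have been detected, against 282 and 276 in WT. At equal counts, the counts of both names were therefore spread over more copies in G3 Terc-/- ESCs.

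Copies seen in 1 genotype alone were mostly seen in G3 Terc-/- ESCs. Of the 1400 MERVL-int copies with any count, 330 (23.6%) had counts in both G3 Terc-/- libraries and none in WT, and 2 (0.143%) showed the reverse. Of the 1267 MT2_Mm copies with any count, these numbers were 293 (23.1%) and 4 (0.316%). Over all 533160 TE copies with any count, the shares were 3.72% for counts in both G3 Terc-/- libraries alone and 3.79% for the reverse. No counts were found on 1200 MERVL-int and 1400 MT2_Mm copies.

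Single copies with at least 5 counts over the 4 libraries were then tested. This minimum was met by 772 MERVL-int copies and 338 MT2_Mm copies, while 628 and 929 copies had 1 to 4 counts. With cutoffs of a 2-fold change at a P value of 0.05, 489 MERVL-int copies (63.3%) were higher in G3 Terc-/- ESCs, 1 was lower and 282 passed in neither direction. Of the MT2_Mm copies, 121 (35.8%) were higher, 0 were lower and 217 passed in neither direction. Of all 176114 copies tested, 4.7% were higher and 3.87% were lower. Copies low in WT could meet the minimum mainly through their G3 Terc-/- counts, so the numbers for both names are given as a description. With the adjusted p of edgeR in place of P, 157 MERVL-int copies (20.3%) and 23 MT2_Mm copies (6.80%) were higher and 0 of either name were lower, against 0.634% higher and 0.366% lower over all copies. DESeq2 called 0 copies of either name lower, and 1 MERVL-int copy and 0 MT2_Mm copies with a negative log2 fold change had an unadjusted p under 0.05 in edgeR.

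The median log2 fold change of the copies tested was 2.91 for MERVL-int and 2.43 for MT2_Mm, against 0.023 over all copies tested. Every G3 Terc-/- library was above every WT library for 659 MERVL-int copies and 226 MT2_Mm copies, an arrangement seen in 20.9% of all copies tested. The 25th and 75th percentiles of the log2 fold changes were 2.01 and 4.44 for MERVL-int, and 1.00 and 4.44 for MT2_Mm. These values describe only copies above the minimum, which copies low in WT could meet mainly through their G3 Terc-/- counts. The log2 fold changes also depend on a prior count. Of the MERVL-int copies 210, and of the MT2_Mm copies 107, had no counts in either WT library.

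Calls were fewer among the copies with the fewest counts, with 108 of 292 MERVL-int copies higher at 5 to 9 counts and 150 of 166 at 20 to 49 counts. For MT2_Mm, 59 of 222 copies were higher at 5 to 9 counts and 11 of 26 at 20 to 49 counts. Over all copies, 3.13% and 7.02% were higher in these classes. DESeq2 called 292 MERVL-int and 52 MT2_Mm copies higher, and 1.6% of all copies. Without G3 Terc-/- replicate 1, edgeR called 127 MERVL-int and 15 MT2_Mm copies higher, and 1.65% of all copies. Without G3 Terc-/- replicate 2, these numbers were 184 and 21 copies, and 1.93% of all copies. Without WT replicates 1 and 2 in turn, 366 and 348 MERVL-int copies and 74 and 77 MT2_Mm copies were higher, and 3.55% and 3.6% of all copies.

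The MERVL-int copies with the most counts fell into 2 kinds. Copy 1112 of the annotation, the most abundant, had 98 and 77 counts in WT against 91 and 66 in G3 Terc-/- libraries. Copy 1111 had 48 and 44 counts in WT against 46 and 51 in G3 Terc-/- libraries, and copy 1115 had 34 and 45 against 41 and 29. The genotypes overlapped for each of these copies, and none passed the cutoffs.

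Copies 2569 and 733, also among the 5 with the most counts, were higher in G3 Terc-/- ESCs. Copy 2569 had 10 and 21 counts in WT against 85 and 66 in G3 Terc-/- libraries, a log2 fold change of 2.38 ± 0.29 (SE, edgeR adjusted p = 1.33e-08). Copy 733 had 3 and 8 counts in WT against 88 and 70 in G3 Terc-/- libraries, a log2 fold change of 3.91 ± 0.35 (SE, edgeR adjusted p = 2.92e-13). Neither overlapped between the genotypes.

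By the fitted log2 fold change, the MERVL-int copies at the top were copies without any count in WT, where the fit depends on its prior count and only a lower bound can be given. Copy 97 had 18 counts in each G3 Terc-/- library, which was at least 12.5-fold higher when WT is set to 3 counts over both libraries. Copies 1924 (15 and 15 counts) and 1217 (18 and 12 counts) were each at least 10.4-fold higher. Copy 215 (11 and 17 counts) was at least 9.69-fold higher, and copy 112 had 17 and 9 counts. The adjusted p-values of these 5 copies, from edgeR, lay between 1.49e-05 and 0.000482. The only MERVL-int copy that was lower at the P value, copy 1655, named here after its values were seen, had 29 and 14 counts in WT against 12 and 4 in G3 Terc-/- libraries (edgeR adjusted p = 0.262).

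Measured ratios above these bounds were found on other copies, among them copy 733 with 14.9. The 3 named here had 1 or 2 counts over both WT libraries and were chosen after their values were seen. Copy 1740 had 1 and 1 counts in WT against 44 and 37 in G3 Terc-/- libraries, a ratio of 42.0 with a 95% counting interval of 11.3 to 353. Copy 1457 had 1 and 0 counts against 21 and 24, a ratio of 46.7 with an interval of 7.97 to 1886. Copy 455 had 1 and 0 counts against 22 and 20, a ratio of 43.6 with an interval of 7.41 to 1763. The intervals were wide and overlapped each other.

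MT2_Mm differed in that its 5 most abundant copies all failed to pass. Copy 2038 alone had 281 and 292 counts in WT against 280 and 245 in G3 Terc-/- libraries, with a log2 fold change of -0.02 (standard error 0.12). Copy 1353 had 59 and 51 counts in WT against 43 and 50 in G3 Terc-/- libraries, and copy 793 had 61 and 53 against 39 and 43. Copies 2420 (56 and 44 against 42 and 40 counts) and 2 (40 and 40 against 25 and 38 counts) were close behind. None of the 5 had a log2 fold change below -0.37 or above 0.

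Other MT2_Mm copies rose from few or no counts. Copy 1971 had 0 counts in WT and 13 in each G3 Terc-/- library (edgeR adjusted p = 0.000413). Copies 1350 (7 and 12 counts) and 517 (10 and 9 counts), also at 0 in WT, were at least 6.57-fold higher, copy 1603 (12 and 5 counts) at least 5.88-fold and copy 2641 (7 and 9 counts) at least 5.54-fold. Copy 800, named here after its values were seen, had 2 and 4 counts in WT against 70 and 62 in G3 Terc-/- libraries (log2 fold change 4.51 ± 0.42 SE, edgeR adjusted p = 6.24e-13). Of the MT2_Mm copies tested, 1 had no counts in G3 Terc-/- ESCs, copy 1214 with 2 and 3 counts in WT.

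**Figure D3:**
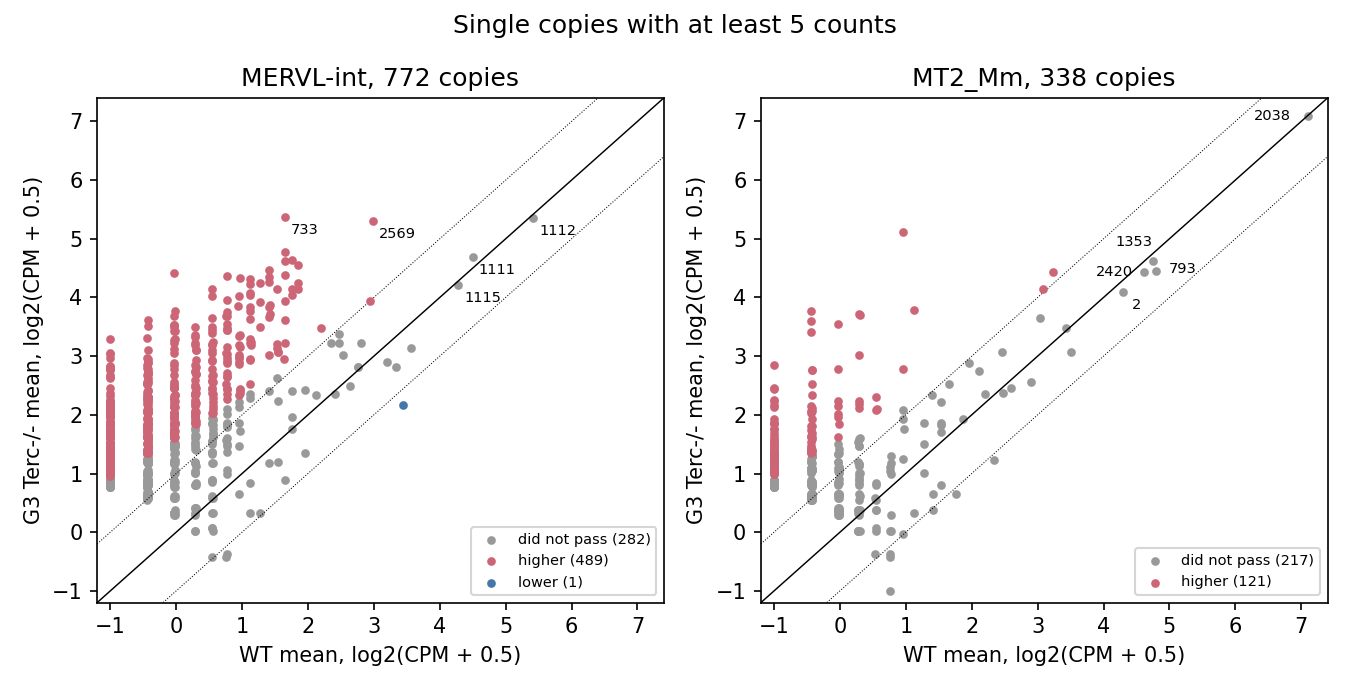
Mean level of each copy with at least 5 counts in WT (horizontal axis) and G3 Terc-/- ESCs (vertical axis), as log2(CPM + 0.5) of the TE counts, for 772 MERVL-int copies (left) and 338 MT2_Mm copies (right). Red points were higher and blue points lower at the cutoffs, grey points did not pass, the solid line marks equal levels, dotted lines mark a difference of 1 on this scale, and numbers name the 5 copies with the most counts. Red points fill the upper left of both panels, and MT2_Mm copy 2038 lies at the far right on the line of equal levels.

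A few abundant copies held a larger share of the WT counts than of the G3 Terc-/- counts. MT2_Mm copy 2038 held 25.6% and 26.6% of the MT2_Mm counts in WT against 9.55% and 9.58% in the G3 Terc-/- libraries. The 5 most abundant MT2_Mm copies together held 45.2% and 43.8% in WT against 14.6% and 16.3% in G3 Terc-/- libraries. Without them, the other copies summed to 602 and 616 counts in WT against 2502 and 2141 in G3 Terc-/- libraries, a 3.96-fold ratio in place of the 2.60-fold rise of the whole name. The 5 most abundant MERVL-int copies, of which 2 were called higher, held 14.0% and 14.3% of the MERVL-int counts in WT against 4.63% and 4.51% in G3 Terc-/- libraries, and the ratio without them was 5.83-fold.

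The spread of the counts over copies also differed between the genotypes. Ordered by their counts within a library, 8 and 9 copies held 50% of the MT2_Mm counts in the WT libraries, while 96 and 83 copies did so in the G3 Terc-/- libraries. For MERVL-int, the numbers were 71 and 69 copies in WT against 157 and 158 copies in G3 Terc-/- libraries. These numbers were not thinned to equal counts, and they can grow with the counts of a name, which were higher in G3 Terc-/- libraries. Among copies with at least 50 counts, 46 of 60 MERVL-int copies and 7 of 17 MT2_Mm copies were higher in G3 Terc-/- ESCs, against 5.79% of all copies with that many counts. The 10 such MT2_Mm copies that passed in neither direction held 52.3% of the MT2_Mm counts in WT and 18.5% in G3 Terc-/- ESCs.

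Classes of copies by their total over the 4 libraries, which takes in the counts of both genotypes, were then compared. MT2_Mm copies with 1 to 4 counts summed to 143 and 145 counts in WT against 806 and 680 in G3 Terc-/- libraries, a log2 ratio of 2.42. The ratio was 2.21 for copies with 5 to 9 counts, 2.11 for 10 to 19, 1.41 for 20 to 49 and 1.05 for 50 to 99 counts. The 7 copies with 100 counts or more summed to 523 and 497 counts in WT against 550 and 510 in G3 Terc-/- libraries, a log2 ratio of 0.11.

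In MERVL-int the 4 lowest classes had log2 ratios between 2.56 and 2.76. Its 51 copies with 50 to 99 counts summed to 339 and 324 counts in WT against 1515 and 1237 in G3 Terc-/- libraries, a log2 ratio of 2.11. The 9 copies with 100 counts or more had a log2 ratio of 1.27. Copies with 1 to 4 counts, too few for a test of each, thus carried the difference in their sum, with 97 and 92 counts in WT against 555 and 517 in G3 Terc-/- libraries.

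**Figure D4:**
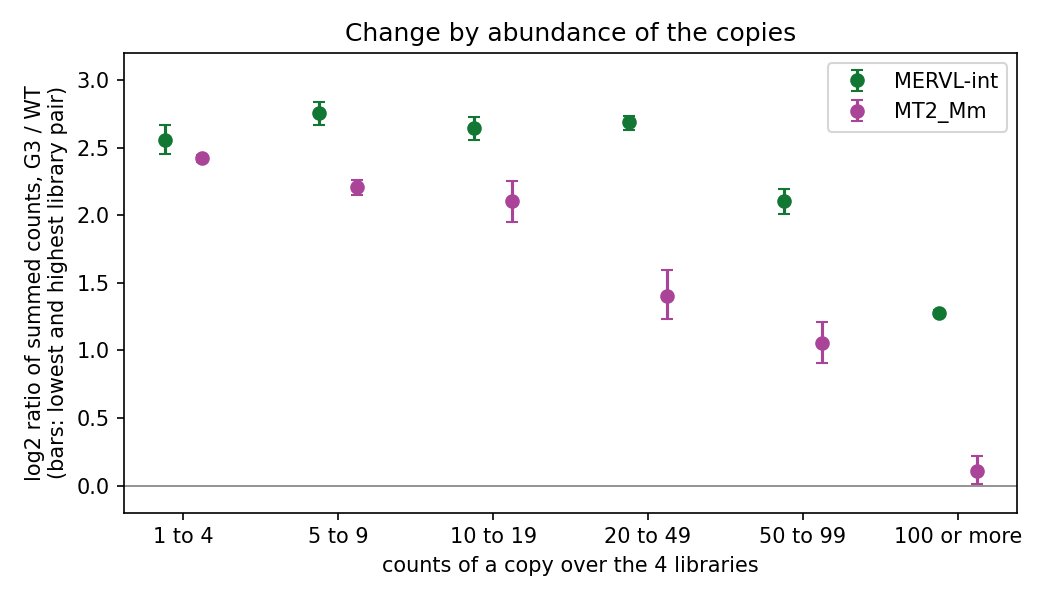
Log2 ratio of summed counts, G3 Terc-/- to WT, for copies grouped by their counts over the 4 libraries. Each sum is relative to the TE counts of the families tested in its library, after TMM scaling. Points are the ratios of the genotype sums, and bars run from the lowest to the highest ratio of a G3 Terc-/- to a WT library. MT2_Mm falls from 2.42 in the lowest class to 0.11 in the highest, and MERVL-int stays between 2.56 and 2.76 up to 49 counts and is at 1.27 in the highest class.

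The related families were read at the same cutoffs for single copies, against the shares of 4.7% higher and 3.87% lower over all copies. MERVL_2A-int had 24 copies higher and 7 lower of 183 tested, and MT2B1 had 34 higher and 10 lower of 270. In MT2C_Mm, 10 copies were higher and 6 lower of 92, and in MT2B2, 18 were higher and 10 lower of 322. MT2B, with 55 higher and 52 lower of 1198, and MT2A, with 9 higher and 11 lower of 283, lay near the shares of all copies. By adjusted p, 17 MT2B1 copies (6.30%) and 3 MERVL_2A-int copies (1.64%) were higher, beside 6.80% of the MT2_Mm copies and 0.634% of all copies.

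Genes of the 2-cell stage, many of them transcribed together with MERVL in 2-cell-like cells, were read from a list of 45, of which 38 were matched to the gene counts. Together they had 238 and 261 counts in WT against 2509 and 2114 in G3 Terc-/- libraries, or 10.8 and 11.6 CPM of the gene counts against 114.6 and 117.1 CPM. Every G3 Terc-/- library was above every WT library for 34 of the 38 genes, an arrangement found in 28.9% of all genes in the counts. Of the other 4 genes, 3 had no counts in any library, and Pramel7, a gene of the PRAME-like family, had 3 and 10 counts in WT against 7 and 3 in G3 Terc-/- libraries.

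Of these 38 genes, 26 passed the filter on low counts, and all 26 of those tested were higher at the 2-fold and P value cutoffs, against 4.73% of all genes tested. Genes this low in WT could pass the filter mainly through their G3 Terc-/- counts, so the number is given as a description. Zscan4d, a member of the zinc finger family that marks 2-cell-like cells and is linked to telomere lengthening in ESCs, had 18 and 22 counts in WT against 243 and 234 in G3 Terc-/- libraries (log2 fold change 3.70 ± 0.21 SE, edgeR adjusted p = 1.05e-18). Its paralog Zscan4a had 16 and 20 counts against 229 and 180 (log2 fold change 3.62 ± 0.22 SE, edgeR adjusted p = 1.10e-17). Gm5662 had 12 and 22 counts in WT against 235 and 234 in G3 Terc-/- libraries (log2 fold change 3.91 ± 0.22 SE, edgeR adjusted p = 1.76e-18). The genotypes did not overlap for any of these genes.

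Among the 26 genes tested, the log2 fold changes ran from 2.23 for Usp17lc, a ubiquitin-specific protease gene of a tandem cluster, to 4.78 for Zfp352, a zinc finger gene of the 2-cell stage. Zfp352 had 0 and 2 counts in WT against 32 and 25 in G3 Terc-/- libraries, a ratio of 31.8 with a 95% counting interval of 8.41 to 269. Both were named after their values were seen. Members of the Zscan4, Usp17l, Tcstv and PRAME-like families are near-identical copies, so the split of reads among them is uncertain.

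**Figure D5:**
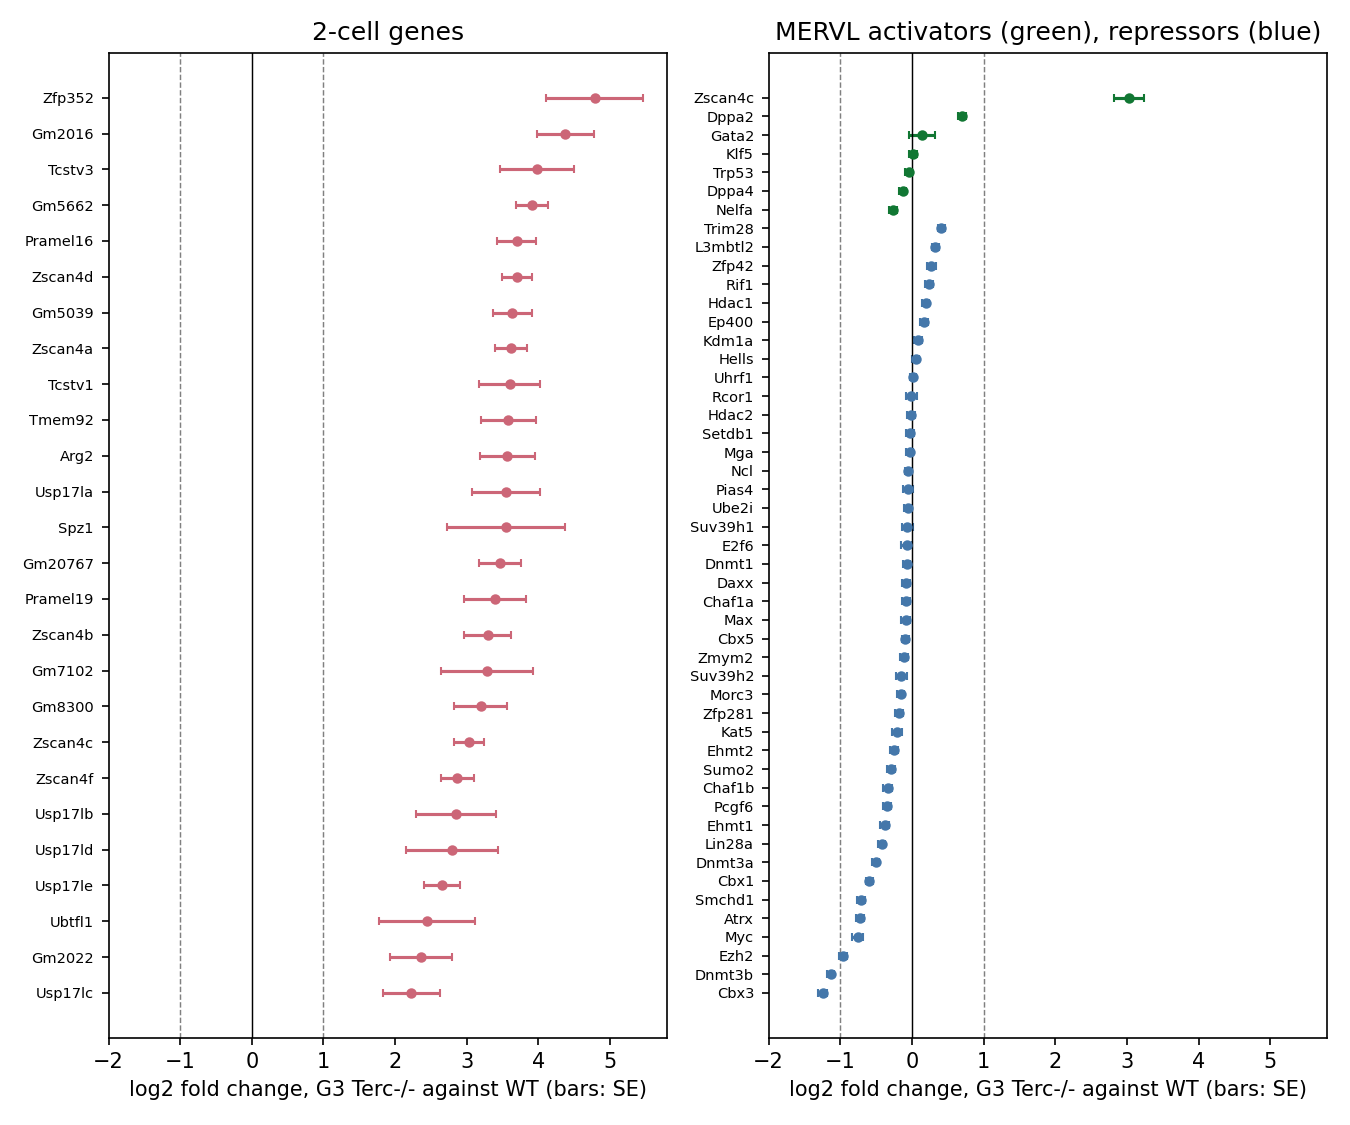
Log2 fold change, G3 Terc-/- against WT, of the tested 2-cell genes (left, 26 genes) and of tested activators (right, green, 7 genes) and repressors (right, blue, 42 genes) of MERVL. Points are edgeR estimates, bars are 1 standard error, and dashed lines mark a 2-fold change. The 2-cell genes lie between 2.23 and 4.78, while the repressors lie between -1.24 and 0.41.

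The promoters of the 2-cell genes were searched for letters they share, because MT2_Mm LTRs are known to drive some of them. RefSeq windows of GRCm38.p6, from 250 bases before to 50 bases after each annotated start, were at hand for 23 of the 38 genes. A run of 45 bases was shared by 4 genes with unlike names, Eif4a3l1, Gm4340, Pramel17 and Sp110. The run was sought on the strand of the gene, and all windows were then scanned for it on both strands. The search was made after the gene values had been seen. For the genes with counts, the 120 bases before the annotated start are given, 5′ to 3′ on the strand of the gene. The shared run is in capitals and lies at or near their 3′ end.
Eif4a3l1: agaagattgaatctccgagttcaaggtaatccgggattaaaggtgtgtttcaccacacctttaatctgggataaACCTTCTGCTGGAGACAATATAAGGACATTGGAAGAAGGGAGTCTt
Pramel17: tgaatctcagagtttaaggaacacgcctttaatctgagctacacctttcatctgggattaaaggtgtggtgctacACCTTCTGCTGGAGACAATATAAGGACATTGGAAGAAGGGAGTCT
Sp110: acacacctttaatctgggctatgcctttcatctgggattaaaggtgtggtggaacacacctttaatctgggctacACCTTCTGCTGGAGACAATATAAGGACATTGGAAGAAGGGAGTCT

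The 120 bases lie at chr6:136327419-136327538 on the plus strand for Eif4a3l1 and at chr4:101844023-101844142 on the minus strand for Pramel17. For Sp110 they lie at chr1:85603892-85604011 on the minus strand. The run was found in 19 of 32851 windows of that length (0.0578%), in 18 of them on the strand of the gene, and these belonged to 18 genes. It began 46 bases before the annotated start of Eif4a3l1 and 45 bases before those of Pramel17 and Sp110. Sp110 has 2 annotated windows, 1 of which held the run. That window lies inside the span of the gene (chr1:85570735-85610850), so it belongs to a start within the gene, while the counts are those of the whole gene. The run was not compared with an MT2_Mm sequence, so whether it comes from an LTR was not tested.

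Eif4a3l1, a gene named for its likeness to Eif4a3, had 1 and 2 counts in WT against 8 and 11 in G3 Terc-/- libraries. Pramel17 had 1 and 0 counts against 9 and 8, and Sp110, a nuclear body gene, had 2 and 3 counts against 15 and 7. These genes were too low for the test, and their genotypes did not overlap. Of the 18 genes with the run, 9 were in the gene counts. Among those with a single annotated window, 3 had no counts in any library. Another 3 had every G3 Terc-/- library above every WT library, namely Eif4a3l1, Pramel17 and Gm20765 (3 and 0 against 14 and 12 counts). This arrangement was found in 28.9% of all genes in the counts, and Eif4a3l1 and Pramel17 were among the 4 genes that gave the run. Sgk1, a kinase gene with 6 annotated windows of which 1 held the run, had 6799 and 6986 counts in WT against 6849 and 5918 in G3 Terc-/- libraries. Arih2, with 2 annotated windows, had 3285 and 3597 counts in WT against 4823 and 4033 in G3 Terc-/- libraries, with no overlap of the genotypes.

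Known activators of MERVL were read from a list of 10, of which 7 were matched and tested. Dux and Obox4, which code for homeodomain factors of the early embryo, were not analysed here. Of the 7 genes, 1 was higher and 0 were lower at the cutoffs by edgeR and by DESeq2. Over all genes 4.73% were higher and 3.13% lower at the cutoffs. By adjusted p of edgeR alone, with no cutoff on size, 2 were higher and 2 were lower. By this rule 21.7% of all genes were higher, and the share of all genes lower was not counted. The 1 gene past the cutoffs was Zscan4c, which is also on the 2-cell list. It had 25 and 26 counts in WT against 221 and 165 in G3 Terc-/- libraries (log2 fold change 3.03 ± 0.21 SE, edgeR adjusted p = 5.00e-16). Dppa2, which acts upstream of Dux, had 2297 and 2548 counts in WT against 3804 and 3376 in G3 Terc-/- libraries, a log2 fold change of 0.69 ± 0.06 (SE, edgeR adjusted p = 1.10e-13) that was below the 2-fold cutoff. Its partner Dppa4 had a log2 fold change of -0.13, Nelfa, a subunit of the negative elongation factor, one of -0.26, and Trp53, which codes for p53, one of -0.04.

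Repressors of MERVL were read from a list of 42 chromatin and silencing genes, all of which were tested. At the cutoffs 0 were higher and 2 were lower by edgeR and by DESeq2, against 4.73% higher and 3.13% lower over all genes. Their median log2 fold change was -0.09, against 0.0062 over all genes tested, with 33 negative and 9 positive. By adjusted p of edgeR alone, with no cutoff on size, 17 were lower and 6 were higher. By this rule 21.7% of all genes were higher, and the share of all genes lower was not counted. The 17 therefore have no share to be read against. Dnmt3b, a de novo DNA methyltransferase, had 11230 and 11596 counts in WT against 5129 and 4405 in G3 Terc-/- libraries (log2 fold change -1.13 ± 0.05 SE, edgeR adjusted p = 1.59e-22). Cbx3, the heterochromatin protein HP1 gamma, had 3400 and 3708 counts against 1427 and 1318 (log2 fold change -1.24 ± 0.06 SE, edgeR adjusted p = 9.09e-21). Ezh2, the H3K27 methyltransferase of Polycomb repressive complex 2, had 4820 and 5122 counts against 2527 and 2168, with a log2 fold change of -0.96 that was short of the cutoff. The genotypes did not overlap for these 3 genes.

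Cbx3 (chr6:51470154-51483704 of GRCm38.p6) and Ezh2 (chr6:47530274-47595270) lie on chromosome 6 between 45 and 80 Mb, where 122 of 129 genes tested had negative log2 fold changes with a median of -0.90. The part of this region in the values of both genes was not tested. Trim28, the co-repressor that zinc finger proteins bring to endogenous retroviruses, had 35630 and 36215 counts in WT against 49520 and 38403 in G3 Terc-/- libraries, a log2 fold change of 0.41. Ncl, which codes for nucleolin and had the most counts of the list, had a log2 fold change of -0.05. Rif1, a telomere- and replication-associated repressor of MERVL, had one of 0.24.

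Markers of other cell types were read beside these results. Of the 11 fibroblast markers tested, 10 had positive log2 fold changes, with a median of 0.46 against 0.0062 over all genes tested. At the cutoffs 1 of them was higher, the proteoglycan gene Dcn, at 20 and 8 against 27 and 26 counts, where 4.73% of all genes were. By adjusted p alone, with no cutoff on size, 6 were higher and 0 were lower, and 21.7% of all genes were higher. Of these, Col5a1, a collagen gene, had a log2 fold change of 0.58 and Pdgfrb, a growth factor receptor gene, one of 0.81. By replicate number, the summed fibroblast level was 389 CPM in G3 Terc-/- against 334 CPM in WT ESCs in replicate 1. In replicate 2 it was 259 against 213.5 CPM. The labels give no pairing of same-numbered libraries, and without it these levels overlapped between the genotypes. Trophectoderm markers summed to 322 and 310 CPM of the gene counts in WT and to 202 and 200 CPM in G3 Terc-/- ESCs, with Eomes higher and Krt8 and Krt18 lower. Primitive endoderm markers summed to 32.8 and 29.3 CPM in WT and to 20.9 and 14.8 CPM in G3 Terc-/- ESCs, with Gata6 and Dab2 lower. Of the 10 ESC markers, 7 had positive and 3 had negative log2 fold changes, with a median of 0.37. The highest was 1.13 for the pluripotency factor Nanog, the only 1 past the cutoffs, and the lowest was -0.79 for Dppa5a. The part of these markers in the levels of MERVL-int and MT2_Mm was not tested.

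The copies had neither positions nor lengths in the counts used here. Levels were therefore not compared between copies or between the names, and a count on a copy inside a gene cannot be told apart from a count of the transcript around it.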

How the data were processed

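Reads had been aligned to mm10 with STAR by the authors, who deposited counts for genes and for single TE copies with no normalization. The submitters' processing notes also name Trim Galore and featureCounts, but neither the strand setting nor the treatment of reads that map to several places is given for these counts in the sources used here. The study's methods speak of uniquely mapped reads for single copies, and whether these counts hold only such reads is not known. Every value of a single copy depends on this, since copies of a young family are near-identical. All 4 libraries were used, grouped by their labels.

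From the deposited counts, copies were summed by repeat name. Fold changes were computed with edgeR 4.0.16 in R 4.3.3 (quasi-likelihood test after TMM scaling, with genotype as its term), fitted and Benjamini-Hochberg adjusted over all 917 families and 14896 genes that passed filterByExpr and over 176114 copies with at least 5 counts in all. The cutoffs were those of the study, a fold change of 1.5 for families and 2 for copies and genes, at a P value of 0.05. Summed levels are CPM of the TE or gene counts of a library. Ratios and bounds of G3 Terc-/- to WT counts, for copies and sums over copies, used the TMM-scaled library sizes of the families tested. Intervals and floors cover counting error only, and a count of 0 was set to 3 counts over both libraries for a bound. Of 24116 gene identifiers, 24061 were matched to a RefSeq symbol of GRCm38.p6.

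The text names the summed families, per name the 5 copies with the most counts, the 5 with the largest rise and up to 3 with the largest fall by adjusted p, copies at 0 in 1 genotype, and per gene list up to 3 genes with the most counts and 3 with the smallest p. Genes of the promoter search and other names said to be chosen later are additions. The members, the lists and the tests were chosen with earlier results of these data known. The gene lists were 2-cell genes, activators, repressors and markers of ESCs, fibroblasts, trophectoderm and primitive endoderm. Alternatives were DESeq2 1.42.0, its size factors in edgeR, scaling by gene counts, other filters, adjusted p-values, the replicate number as a block, abundant copies left out and each library left out. Pairs of neighbouring copies were planned but not described, because the numbers of the copies run within each name and carry no position. Figures were drawn with matplotlib 3.10.9.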

Additional observations from a re-analysis of the deposited data

How the results depend on the processing

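The summed log2 fold changes of MERVL-int (2.35 to 2.54) and MT2_Mm (1.14 to 1.98) kept their direction and stayed past the cutoffs under every alternative run, and with 1 library left out they lay between 2.35 and 2.43 and between 1.36 and 1.40. Scaling by the gene counts gave 2.46 and 1.45, and moved the median of all families by 0.0688. The lowest value of MT2_Mm came from copies with at least 5 counts alone, and the highest from leaving out its 5 most abundant copies, an alternative added after the data were seen. The numbers of copies moved most. Of MERVL-int, 489 copies were higher in the reported fit, 292 by DESeq2, 144 of 160 tested under filterByExpr, 196 of 226 with at least 20 counts, 157 by adjusted p, and 127 to 366 with 1 library left out. The 1 copy that was lower became 0 by DESeq2 and by adjusted p, and 0 to 1 with 1 library left out. Of MT2_Mm, 121 copies were higher in the reported fit, 52 by DESeq2, 12 of 25 tested under filterByExpr, 18 of 43 with at least 20 counts, 23 by adjusted p, and 15 to 77 with 1 library left out, and 0 to 1 were lower. Over all copies, 4.7% were higher in the reported fit, 1.6% by DESeq2, 7.27% under filterByExpr, 6.65% with at least 20 counts and 0.634% by adjusted p. The stricter filters test fewer copies, and with 1 library left out the lone library is assumed to vary like the others. With the replicate number as a block, 73 MT2_Mm and 380 MERVL-int copies were higher, and 3.08% of all copies. The labels name nothing that same-numbered libraries share, and with 2 pairs the correlation of their deviations (-0.047 over families and 0.11 over genes) could not settle a pairing, although the fibroblast level was higher in replicate 1 of both genotypes. The block changed no other call. The difference in the log2 ratio of MERVL-int to MT2_Mm was 0.80 without the most abundant copy of each name, 1.25 with copies of at least 5 counts, 0.56 without the 5 most abundant, and 0.97 to 1.05 with 1 library left out. Of the gene lists, only 2-cell genes, activators and repressors were run under the alternatives, and their numbers of calls stayed within 1.5 times those reported, with 33 in place of 26 2-cell genes higher when no filter was used. The depth of 1 to 4 counts on 628 and 929 copies limits what can be said of single copies. The description of neighbouring copies could not be run.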
